A study of Mus musculus with 30 samples.

Results

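Germinal centre (GC) B cells that express IgG1 were compared according to whether or not they carried green fluorescent protein (GFP), in cells not separated by zone. The samples were those titled as IgG1 GC cells with and without GFP, 3 GFP+ and 3 GFP- arrays of 30 in the series, and each title carries a replicate number. All came from CeGFP BALB/c mice, which carry an IRES-GFP knock-in, placed at Cepsilon behind the coding part of membrane IgE (in its 3' untranslated region), infected with the worm Nippostrongylus brasiliensis. On day 10, cells of the mesenteric lymph nodes were sorted as IgG1+, B220+, CD95+ and CD138-, and either GFP+ or GFP-. Every array held the pooled cells of 3 mice and a separate sort, so GFP+ and GFP- cells differ by the sort gate and not by genotype or infection. Per the labels, an IgG1 cell is GFP+ where the heavy chain chromosome without a productive VDJ has rearranged to Cepsilon. No age of the mice was found in the labels used here. IgE GC cells, which are titled GFP+, and naive B cells (3 arrays each) served as references. So did IgG1 cells sorted from the dark zone (DZ) and light zone (LZ) as GFP+ or GFP- (3 arrays in each of 4 groups).

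In the germinal centre, activated B cells divide and mutate their antibody genes in the dark zone and are selected on antigen and T cell help in the light zone. Class switching joins the variable region to another constant region, under cytokines such as IL-4. Each B cell has a productive and often a non-productive heavy chain chromosome, and both can undergo switching, so a switch to Cepsilon on the silent chromosome can leave a mark in a cell whose antibody is IgG1.

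Values are log2 signals, and a difference is GFP+ minus GFP- on that scale, so that -1 is a halving of the signal. Of 6 arrays, GFP+ replicate 3 stood apart. Its upper quartile was 6.97, against 7.13 to 7.18 on the other 5, and the median difference of its pair was -0.13, against -0.01 and 0.02 in the other pairs. Differences that rest on it are therefore also given without it. The median SD between replicates was 0.23 in GFP+ and 0.17 in GFP- cells. Ptprc (B220) was bright on all 6 arrays, at 11.21 to 11.61, as was Fas (CD95), at 8.07 to 9.01, whereas Sdc1 (CD138) lay at 4.44 to 4.68, below every array's median. The gamma-1 and epsilon heavy chain genes were not analysed here. Of the markers of other cells, 3 of 13 T cell genes and 2 of 14 macrophage and dendritic cell genes lay above the array median on all GFP+ arrays. Their summed levels overlapped between the groups, at 9.09 to 9.61 in GFP+ and 9.0 to 9.31 in GFP- cells for T cells, and at 9.09 to 9.26 and 8.92 to 9.25 for macrophages and dendritic cells. Of the 4 T cell genes tested, 3 were higher and 1 lower in GFP+ cells. The other members were too dim to be tested and went both ways. Of these, Cd3d, Il7r, Cd3g, Cd8b1 and Cd8a differed by -0.64, -0.53, -0.23, -0.15 and -0.05. Zap70, Cd4, Bcl11b and Icos differed by 0.09, 0.08, 0.08 and 0.06. Cd3e, of the T cell receptor complex, differed by -0.34 ± 0.35 (SE), or -0.12 without GFP+ replicate 3. Thy1, Cd5 and Cd247 differed by 0.75 ± 0.39, 0.31 ± 0.19 and 0.27 ± 0.21, or by 1.07, 0.33 and 0.31 without that array. For Cd5 and Cd247 all GFP+ arrays lay above all GFP- arrays, a separation that 5.04% of all genes tested showed in that direction. Cd5 was above the array median on 2 GFP+ and 0 GFP- arrays.

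In limma, 0 of 10409 genes tested (0%) were called between GFP+ and GFP- cells, where called means a Benjamini-Hochberg adjusted p under 0.05. The smallest adjusted p was 0.825, and 514 genes (4.94%) had an unadjusted p under 0.05, of which 165 (1.59%) were higher and 349 (3.35%) lower in GFP+ cells. This split moved with the scaling, to 248 higher and 274 lower after a further quantile normalization and to 322 and 219 after centring each array, and was 215 and 208 without GFP+ replicate 3. The total was 886 without GFP+ replicate 1, 783 without GFP+ replicate 2 and 249 when all 18 arrays of the first experiment, naive and plasma cells included, shared the fit. The precision was such that the 95% interval of the difference lay within a doubling or halving for 91.6% of genes. The median gene was -0.05 and 58.3% of genes were lower by any amount. The genes below are therefore described by their values, and each difference has an adjusted p of at least 0.825 in this fit. The test took in genes brighter than the array median over genes, 5.36 to 5.50, on at least 3 of the 9 unseparated GC arrays. Of these, 12 were above it on all GFP- and no GFP+ arrays and 21 on all GFP+ and no GFP- arrays. In bulk RNA, fewer cells with a transcript and less of it per cell cannot be told apart.

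The genes that define GC B cells had close to equal signals. Bcl6, the repressor that maintains the GC programme, was at 11.11, 10.96 and 11.01 in GFP+ replicates 1 to 3 and at 11.17, 10.88 and 11.04 in GFP- replicates. The difference was 0.00 ± 0.13 (SE, n = 3 and 3), with a 95% interval of -0.29 to 0.28. Pax5, which sets B cell identity, read 11.23, 10.95 and 11.09 in GFP+ and 10.95, 11.21 and 11.16 in GFP- cells, so the groups interleaved and the interval of its difference was -0.32 to 0.29. Myc, induced in selected light zone cells, differed by 0.18 (interval -0.17 to 0.53). Mki67, a marker of cycling cells, differed by -0.05 (-0.33 to 0.22), and Xbp1, the transcription factor of the secretory response, by -0.06 (-0.56 to 0.43). Bach2 and Cd22, a repressor and an inhibitory receptor of B cells, differed by -0.16 (-0.57 to 0.24; -0.36 without GFP+ replicate 3) and -0.01 (-0.33 to 0.31). Prdm1 was too dim to be tested. The sort receptors of the zones, Cxcr4 and Cd86, differed by -0.09 (-0.39 to 0.21) and -0.32 (-0.83 to 0.20; -0.17 without GFP+ replicate 3), and Cd83, another light zone receptor, by -0.13 (-0.46 to 0.20).

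Of the 18 genes of the GC programme that were tested, 17 were lower and 1 higher in GFP+ cells, and none was called. Their median was -0.15, beside -0.05 over all genes, and -0.08 beside 0 without GFP+ replicate 3. Lmo2, a transcriptional cofactor of GC cells, read 7.55, 7.76 and 7.50 in GFP+ against 7.98, 8.02 and 7.83 in GFP- cells. Klhl6, an adaptor needed for GC formation, read 10.73, 10.91 and 10.78 against 11.09, 10.93 and 11.18. These were the 2 members whose 3 GFP+ arrays all lay below the 3 GFP- arrays, a separation that 6.23% of all genes showed in that direction and 5.04% in the other. The B cell identity list was alike, with 21 of 23 genes lower and a median of -0.15, or -0.05 without GFP+ replicate 3. The 8 housekeeping genes had 7 lower and a median of -0.19, or -0.08 without that array, with Actb at 0.02 and B2m at -0.25 (-0.12 without it).

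**Figure D1:**
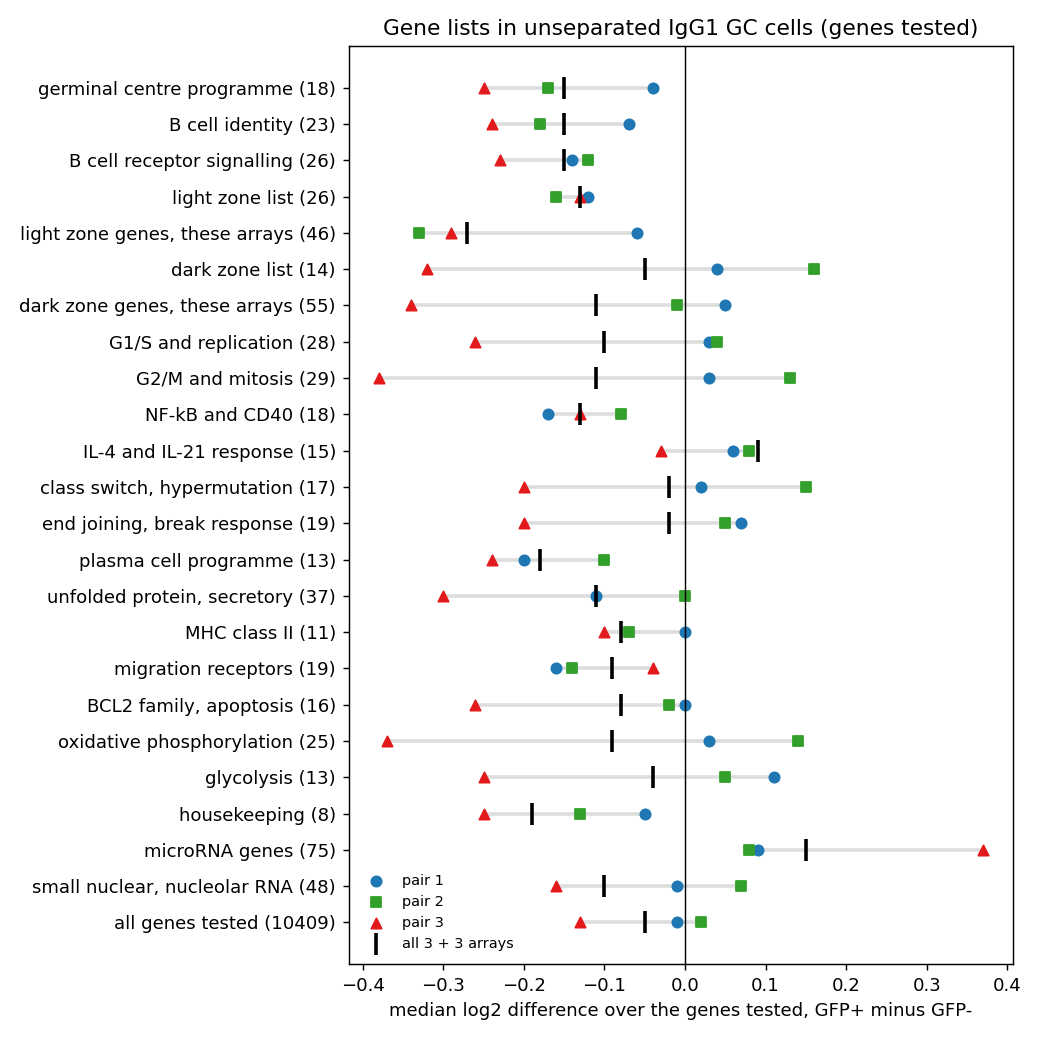
Median log2 difference, GFP+ minus GFP-, over the tested genes of each list (number in brackets), for each pair of arrays with the same replicate number (coloured points) and for all 3 + 3 arrays (black bar). Pair 3 lay lowest for many lists, as for all genes tested (-0.13 against -0.01 and 0.02), whereas the microRNA genes lay highest in pair 3 (0.37).

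Among the regulators of activation and differentiation, Irf4, a transcription factor needed for switching and for plasma cells, had the largest difference of the core B cell genes apart from Ighg3. It read 6.89, 6.71 and 6.16 in GFP+ cells and 7.90, 7.43 and 6.85 in GFP- cells. Each GFP+ array lay below the GFP- array with its number, although the highest GFP+ array reached past the lowest GFP- array. The difference was -0.80 ± 0.31 (SE) and had an interval of -1.49 to -0.11. Without GFP+ replicate 3 it was -0.59. In the zone-sorted cells Irf4 differed by -0.47 ± 0.26, with -0.80 in DZ and -0.13 in LZ cells. The DZ groups overlapped, at 5.91, 5.24 and 5.47 in GFP+ and 6.35, 5.43 and 7.23 in GFP- cells. Irf4 was itself higher in LZ cells, with a DZ minus LZ difference of -1.28. The plasma cell list as a whole had 12 of 13 tested genes lower, with a median of -0.18, or -0.07 without GFP+ replicate 3. Its member Jchain, which joins IgM and IgA into polymers, differed by -0.14 ± 0.16, and Tnfrsf13b, the receptor TACI, was its only higher member, at 0.28 ± 0.15.

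Receptors and signalling genes of the B cell receptor pathway were mostly lower by small amounts, 22 of 26 with a median of -0.15. That median was -0.05 without GFP+ replicate 3. Syk, the kinase recruited to the receptor, read 9.37, 9.38 and 8.84 in GFP+ and 9.61, 9.70 and 9.49 in GFP- cells, a difference of -0.40 that became -0.22 without GFP+ replicate 3. Plcg2, the phospholipase downstream of it, differed by -0.25 ± 0.14, and Itpr2, a calcium channel of the endoplasmic reticulum, by -0.23 ± 0.13. These were the 3 of 26 members whose groups did not overlap, all lower, a separation that 6.23% of all genes showed in that direction. In the zone-sorted cells the 3 genes differed by 0.11, -0.01 and -0.09. Cr2, the complement receptor CD21, read 9.99, 9.37 and 9.87 in GFP+ and 10.32, 9.86 and 10.24 in GFP- cells. It was lower in each pair, by -0.39 ± 0.20 over the 6 arrays, and by -0.30 ± 0.09 in the zone-sorted cells. Fcer2a, the low-affinity IgE receptor CD23, was bright on all arrays (10.93 to 11.46) and differed by -0.13 ± 0.17.

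Because switching to Cepsilon needs IL-4, genes of the IL-4 and IL-21 response were examined as a list. Of 15 tested, 9 were higher and 6 lower in GFP+ cells, and the median was 0.09. The receptor chain Il4ra differed by 0.09 ± 0.13 and its transcription factor Stat6 by 0.03 ± 0.17. The feedback inhibitor Socs3 read 5.69, 5.79 and 5.68 in GFP+ cells and 5.38, 5.45 and 5.10 in GFP- cells. All 3 GFP+ arrays lay above the GFP- arrays, but in the zone-sorted cells Socs3 differed by -0.01. Nfil3, a transcription factor induced by IL-4, differed by 0.46 ± 0.20 here and by 0.25 in the zone-sorted cells. Il21r, the IL-21 receptor, differed by -0.34 ± 0.19. Pim1, a kinase induced by cytokines, had a difference of 0.69 ± 0.51 that came mainly from GFP+ replicate 2 (10.48, against 8.16 and 8.63).

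Of the genes of class switching and hypermutation, 5 were higher and 12 lower, with a median of -0.02. Ung, the uracil DNA glycosylase that processes deaminated cytosines, was the member with the largest difference. It read 7.00, 7.31 and 7.93 in GFP+ and 6.83, 6.50 and 6.59 in GFP- cells, so that every GFP+ array lay above every GFP- array. The difference was 0.77 ± 0.23, or 0.51 without GFP+ replicate 3. In the zone-sorted cells it was 0.26 ± 0.18, with groups that overlapped in both zones. Msh6 and Exo1, of mismatch repair, differed by -0.07 and -0.02, and the polymerase Polh by -0.21. In the end joining list 8 genes were higher and 11 lower. Its member Lig4, the ligase of non-homologous end joining, read 8.08, 7.99 and 8.07 against 7.35, 7.88 and 7.99. There the highest GFP- array came level with the lowest GFP+ array to 2 decimals, and the zone-sorted difference was -0.10.

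Of the immunoglobulin genes, none of which was called, all 4 constant region and joining chain genes tested had lower means in GFP+ cells, with a median of -0.34. Ighg3, the gamma-3 heavy chain, read 7.33, 6.19 and 4.30 in GFP+ cells and 8.12, 7.96 and 7.53 in GFP- cells. The groups did not overlap, but the GFP+ arrays spanned far more than the GFP- arrays, and the difference of -1.93 ± 0.64 became -1.11 without GFP+ replicate 3. In the zone-sorted cells it was -0.39 ± 0.28. The mu chain Ighm and the alpha chain Igha differed by -0.28 ± 0.21 (-0.43 without GFP+ replicate 3) and -0.40 ± 0.26. Of the 8 variable region genes, all kappa, 7 were lower, with a median of -0.36 that became -0.10 without GFP+ replicate 3. In 1 of these 8 all GFP+ arrays lay below all GFP- arrays, a separation that 6.23% of all genes showed in that direction. Its difference was -0.71, or -0.32 without that array. Immunoglobulin genes are near-identical families, so probes may read more than 1 of them.

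**Figure D2:**
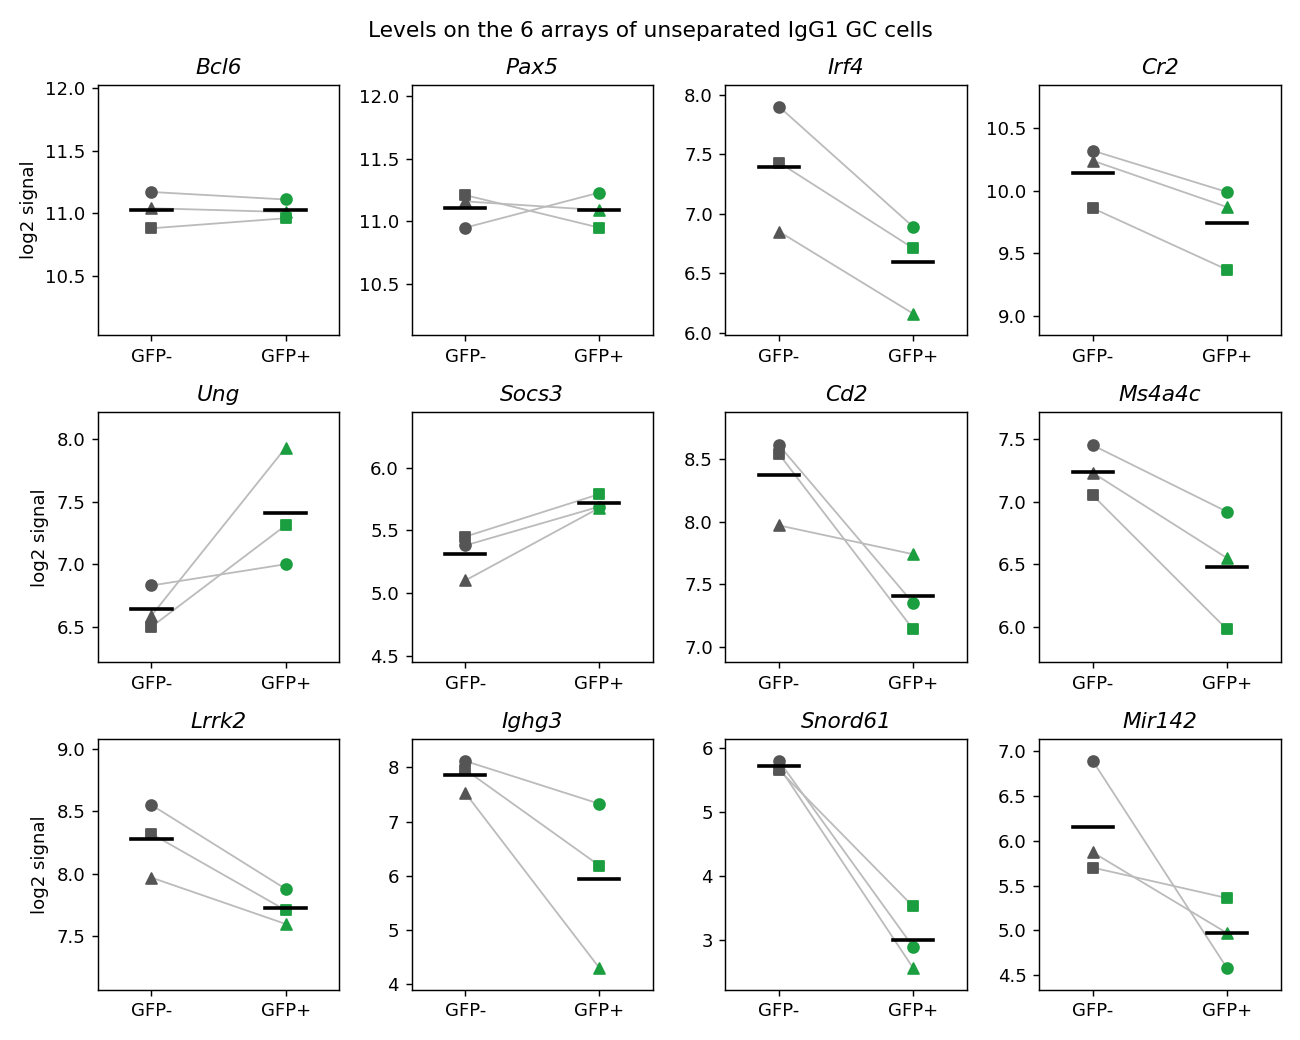
Log2 signals of 12 genes on the 6 arrays, GFP- in grey and GFP+ in green, with replicates 1, 2 and 3 as circles, squares and triangles joined by replicate number and black bars for the group means; the vertical axes differ between panels. Bcl6 and Pax5 lay at the same level in both groups, whereas the dim Snord61 lay at 2.57 to 3.53 in GFP+ and 5.66 to 5.80 in GFP- cells.

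Several of the genes with the lowest and highest differences among those whose groups did not overlap were small RNA genes. Rnu3a, a U3 RNA of ribosomal RNA processing, read 8.94, 9.39 and 9.84 in GFP+ and 10.55, 11.24 and 11.30 in GFP- cells. The difference was -1.64 ± 0.50, and -0.12 in the zone-sorted cells. Snord61, a small nucleolar RNA that guides methylation of ribosomal RNA, read 2.90, 3.53 and 2.57 in GFP+ and 5.80, 5.66 and 5.71 in GFP- cells. It was dim: the GFP+ arrays lay below the array median and the GFP- arrays just above it, so the size of its difference, -2.72 ± 0.70 with an adjusted p of 0.825 in limma, is uncertain. With only the 6 arrays compared in the fit it was the 1 gene called, at an adjusted p of 0.0273, but there it had passed the filter through its 3 GFP- arrays alone. When genes were instead kept by their mean over the 6 arrays, a filter chosen after the values were seen, Snord61 was not tested and 0 of 9981 genes were called in limma (399 at an unadjusted p under 0.05). The IgE GC arrays, which share the spread in the 9-array fit, read 3.42, 3.07 and 6.45. In the zone-sorted cells it differed by 0.22 ± 0.49.

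Mir142, the gene of a microRNA that is abundant in blood cells, read 4.58, 5.36 and 4.97 in GFP+ cells and 6.89, 5.70 and 5.87 in GFP- cells. It was above the array median on the 3 GFP- arrays and on none of the GFP+ and IgE GC arrays, so it too had passed the filter through the group in which it is higher. The difference of -1.18 ± 0.30 is against a dim signal, and the zone-sorted difference was 0.01 ± 0.34. Its 2 mature products are shown because the seed, bases 2 to 8 and in capitals, decides which transcripts a microRNA pairs with. The array measured the gene's transcript, not these mature RNAs. The sequences are from RefSeq on GRCm38.p6, plus strand, at chr11:87756867-87756887 and chr11:87756903-87756925.
mmu-miR-142a-5p: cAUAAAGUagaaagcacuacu
mmu-miR-142a-3p: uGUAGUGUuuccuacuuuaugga

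In the other direction, Snord49b, a small nucleolar RNA, read 7.18, 7.82 and 8.74 against 6.08, 6.72 and 7.13. Its difference was 1.27 ± 0.46 here, or 0.85 without GFP+ replicate 3, and -0.32 ± 0.35 in the zone-sorted cells. As groups that were chosen after the values were seen, 20 of 48 small nuclear and nucleolar RNA genes were higher and 28 lower, with a median of -0.10. Of 75 microRNA genes, 58 were higher, with a median of 0.15 that became 0.05 without GFP+ replicate 3.

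Among protein-coding genes with separate groups, the largest higher values were those of Tfb2m, a factor of mitochondrial transcription. It read 7.74, 7.58 and 6.99 against 6.48, 6.63 and 5.87, and differed by 1.11 ± 0.26. Rbis and Llph, both linked to ribosome biogenesis, differed by 1.05 ± 0.30 and 0.79 ± 0.33, or by 0.70 and 0.29 without GFP+ replicate 3, which read 11.34 for Llph, against 9.98 and 9.73. Pdss2, of coenzyme Q synthesis, differed by 0.96 ± 0.27, and Cox7a1, a subunit of cytochrome oxidase, by 0.88 ± 0.31, or 0.45 without that array. Ltc4s, leukotriene C4 synthase, had a difference of 1.02 ± 0.43 that came mainly from GFP+ replicate 1 (7.61, against 5.63 on both others). The rest of the 10 were Snord49b, Gm2027, the co-chaperone Sgta, and Tsacc, at 0.80 to 1.27. Of these 10 genes, Tsacc had the largest zone-sorted difference in the same direction, 0.42 ± 0.21. Ltc4s, Llph, Pdss2 and Sgta differed there by 0.12, 0.10, 0.07 and 0.05. Tfb2m, Gm2027, Cox7a1, Rbis and Snord49b went the other way, by -0.09, -0.10, -0.13, -0.30 and -0.32. Ltc4s and Tsacc were dim, above the array median on 3 GFP+ and 1 GFP- arrays. Gm2027, with a difference of 0.81 ± 0.47 in unseparated cells, was above it on 2 GFP+ and 0 GFP- arrays.

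On the lower side, Mospd1 read 5.52, 5.38 and 4.86 in GFP+ and 7.51, 6.47 and 5.98 in GFP- cells. Its difference was -1.40 ± 0.34, and it was also lower in the zone-sorted cells, by -0.63 ± 0.27. Kcnrg and Polr2k, a subunit shared by RNA polymerases, differed by -1.18 ± 0.26 and -1.12 ± 0.26, but by -0.21 and 0.03 in the zone-sorted cells. Suox, sulfite oxidase, differed by -1.27 ± 0.36 here and 0.37 ± 0.31 there. Trim12c, of a family of near-identical genes, had -1.72 ± 0.76, of which -0.55 was left without GFP+ replicate 3 (3.34, against 6.97 and 6.71). Tubb2a, a beta tubulin, had -1.44 ± 0.50 and an unusually bright GFP- replicate 3 (7.93, against 5.67 and 6.02). Mospd1, Suox and Tubb2a were above the array median on 1 of 3 GFP+ arrays.

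Over all lists, 422 distinct genes were tested, of which 10 (2.37%) had all GFP+ arrays above and 19 (4.50%) all below the GFP- arrays. Both shares were under those of all genes (5.04% and 6.23%). Beyond the genes above, the members with separate groups were spread over many lists. Among mitotic genes Kif20a, Cdca8 and Hmmr differed by -0.45, -0.40 and -0.25, and Chaf1b, a histone chaperone, by -0.30. Without GFP+ replicate 3, Cdca8 and Hmmr differed by -0.22 and -0.14. In the BCL2 family and apoptosis list, the death promoters Bad and Pmaip1 (NOXA) differed by -0.47 and 0.37 ± 0.15, and the survival gene Bcl2l1 by -0.28. Nfkbie, an inhibitor of NF-kB, differed by -0.47, Sema7a by -0.46, the interferon signalling factor Stat2 by -0.45 and the chaperone Hsp90b1 by -0.31. Sema7a and Hsp90b1 became -0.27 and -0.20 without that array. Higher were Fdps, of cholesterol synthesis, by 0.40, and Pgam1, of glycolysis, by 0.21. The zone-sorted differences of these 13 genes ran from -0.17 (Stat2) to 0.28 (Bcl2l1 and Fdps). Of the markers of other cells, besides Cd5 and Cd247, the collagen gene Col1a2 of stroma was higher in this way, by 0.30, or 0.15 without GFP+ replicate 3, and lay above the array median on 2 GFP+ and 0 GFP- arrays. The part of other cells in these values was not tested.

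Of 55 tested genes whose signal is high in naive B cells, 51 had a lower mean in GFP+ cells, and none was called. The set was chosen after the values were seen, but on arrays that enter neither side of the comparison. In limma, 66 genes were called at an adjusted p under 0.05 and lay at least 2 log2 units higher in naive than in IgE GC cells. The IgE GC cells were themselves sorted as GFP+, per their titles. A gene that is lower in any GFP+ sort could therefore enter the set more easily, which was not tested. The naive arrays varied more, with a median SD of 0.36 against 0.18 in IgE GC cells. Their summed level of macrophage and dendritic cell markers was 9.61 to 10.22, against 9.09 to 9.26 in GFP+ and 8.92 to 9.25 in GFP- cells. The set may therefore hold genes of other cells, which was not tested. Of the 55 that were tested, the 51 (92.7%) stood beside 58.3% of all genes. Their median difference was -0.35, and -0.32, -0.41 and -0.33 in pairs 1, 2 and 3, against -0.01, 0.02 and -0.13 for all genes. Gene by gene, 39, 45 and 45 of the 55 were lower in these pairs and 26 in all 3, which 17.6% of all genes were. The median was -0.34 after quantile normalization and -0.27 without GFP+ replicate 3. Without the filter on dim genes, 60 of 66 were lower with the same median of -0.35, where all genes had 43.3% lower and a median of 0.03.

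In this set 10 genes (18.2%, beside 6.23% of all genes) had all GFP+ arrays below all GFP- arrays, and 1, A430078G23Rik, all above (5.04% of all genes). Cd2, an adhesion receptor of lymphocytes, read 7.35, 7.14 and 7.74 in GFP+ and 8.61, 8.54 and 7.97 in GFP- cells, a difference of -0.96 ± 0.22. Ms4a4c, a membrane protein of the MS4A family, read 6.92, 5.98 and 6.55 against 7.45, 7.05 and 7.23. Cdkn1b, the cell cycle inhibitor p27, read 6.12, 6.32 and 5.80 against 6.79, 6.81 and 6.45, and differed by -0.60 ± 0.18. Pdcd4, an inhibitor of translation, differed by -0.65 ± 0.19, and the interferon-inducible Ifi209 by -1.11 ± 0.31. Zfp318, needed for surface IgD, differed by -0.48 ± 0.18, Gm9861 by -0.54 (-0.36 without GFP+ replicate 3), the adaptor Tyrobp by -0.37 and Zfp831 by -0.20. Other members that set naive cells apart had smaller values and overlapping arrays, among them the egress receptor S1pr1 (-0.36 ± 0.26; -0.15 without GFP+ replicate 3), the chemokine receptor Ccr6 (-0.23 ± 0.26) and the survival gene Bcl2 (-0.22 ± 0.22). In the zone-sorted cells Ifi209 and Cd2 differed by 0.34 and 0.05, and Cdkn1b, Pdcd4 and Gm9861 by -0.03, -0.09 and -0.09. Tyrobp, Zfp831, Zfp318 and Ms4a4c differed there by -0.17, -0.35, -0.38 and -0.43. S1pr1 differed there by 0.34, and Ccr6 and Bcl2 by -0.05 and -0.10.

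Lrrk2, a large kinase, was the member with the smallest p over unseparated, DZ and LZ cells. It read 7.88, 7.71 and 7.60 in GFP+ and 8.55, 8.32 and 7.97 in GFP- cells, so that the groups did not overlap. In DZ cells it read 6.89, 7.17 and 6.64 against 7.20, 7.64 and 7.54, and in LZ cells 8.56, 8.92 and 8.45 against 8.92, 9.18 and 8.97. Over the 3 settings the difference was -0.50 ± 0.11, with an adjusted p of 0.75 in limma, and its DZ minus LZ difference was -1.66.

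For the naive-marking set as a whole, 42 of 57 genes tested in the zone-sorted cells were lower in GFP+ cells, with a median of -0.10. Over all genes tested there, 5236 of 10637 were lower. All 6 pairs of zone arrays had a median below 0, at -0.15, -0.09 and -0.11 in DZ and -0.08, -0.22 and -0.07 in LZ cells. For all genes these were -0.01, 0.03 and -0.08 in DZ and 0, -0.01 and 0.06 in LZ cells. The medians of the set pointed the same way in both experiments and were smaller in the zones. The opposite set, 333 genes at least 2 log2 units higher in IgE GC than in naive cells, had a median of -0.09, which came from pair 3 (-0.34, against 0.03 and 0.08) and was 0.00 without GFP+ replicate 3. The summed level of the 18 GC programme genes was 14.30 to 14.43 in GFP+, 14.46 to 14.50 in GFP- and 13.48 to 13.92 in naive cells. The part that naive or other cells within the gates play in these values was not tested.

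**Figure D3:**
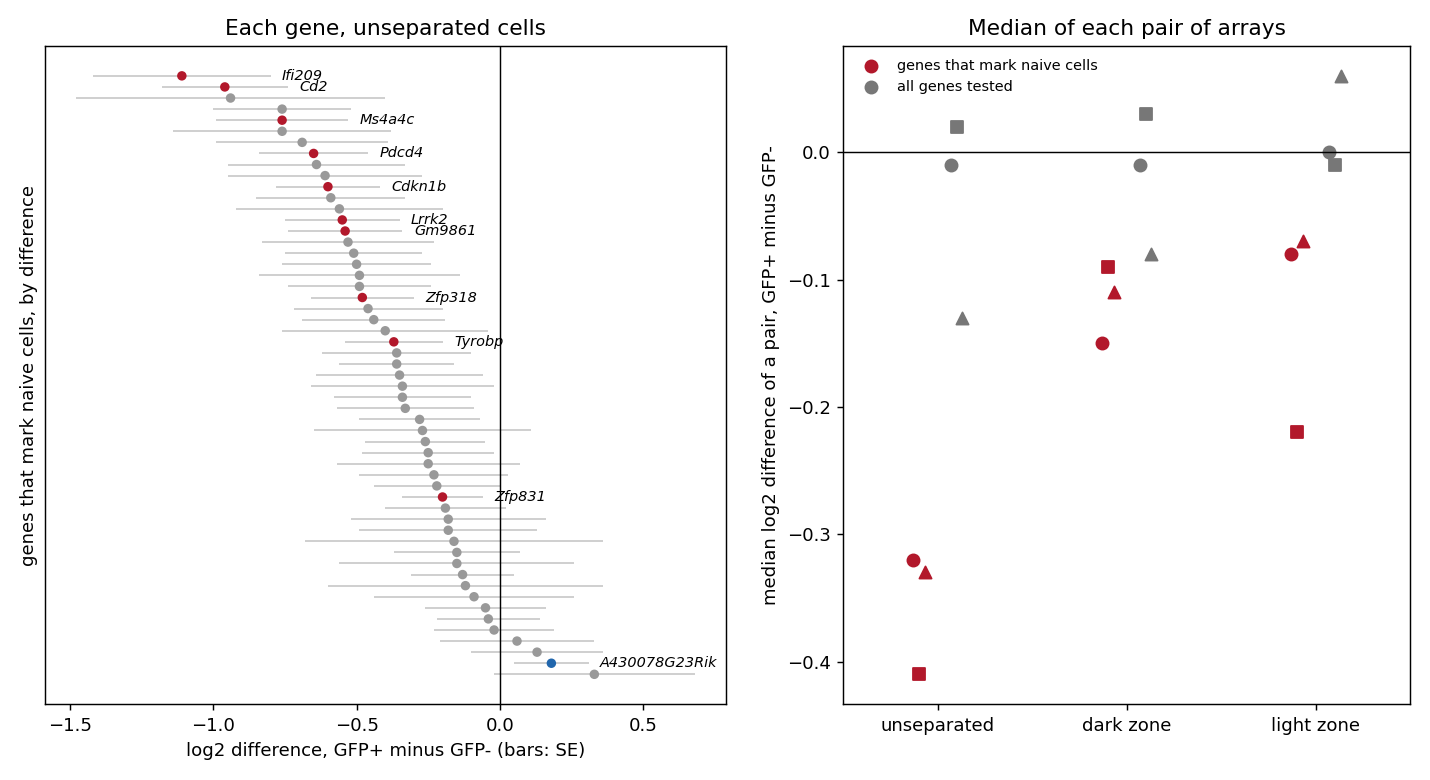
Left, the log2 difference of each of the 55 tested genes that mark naive cells, with its SE, in red where all GFP+ arrays lay below all GFP- arrays and in blue where all lay above. Right, the median of each pair of arrays (circles, squares and triangles for replicates 1, 2 and 3) for these genes and for all genes tested; the set lay at -0.41 to -0.32 in unseparated cells and at -0.22 to -0.07 in the zones.

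Genes that mark the zones were taken from the 12 zone-sorted arrays, in which 765 of 10637 genes (7.19%) were called between DZ and LZ cells in limma. Of these, 55 (0.517%) were at least 2-fold higher in DZ and 47 (0.442%) in LZ cells. Of the 46 LZ genes tested in the unseparated cells, 41 were lower in GFP+ cells, with a median of -0.27, or -0.14 without GFP+ replicate 3. By pair it was -0.06, -0.33 and -0.29. Of the 55 DZ genes, 37 were lower, with a median of -0.11, or -0.03 without that array. Within the zone-sorted cells the LZ genes had a median GFP difference of -0.12 and 35 of 47 were lower, whereas the DZ genes had a median of 0.08 and 37 of 55 were higher. The sets overlap. With no limit on the fold, 21 of the 55 naive-marking genes were also called as higher in LZ cells. Fewer were among the LZ genes at least 2-fold higher, such as Serpinb1a, Zfp318, Lrrk2, Ephx1 and Lifr. The 33 naive-marking genes that were not called between the zones had 29 lower and a median of -0.34.

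The same sort difference was examined gene by gene in the zone-sorted cells, which share no array with the unseparated ones. None of 10637 genes was called in limma (0%), the smallest adjusted p was 0.667, and 495 (4.65%) had an unadjusted p under 0.05. Of 10289 genes tested in both, 55.8% had the same sign, with a Pearson correlation of 0.11 and a Spearman correlation of 0.14 across genes, which are not independent replicates. Of the genes with separate groups in the unseparated cells, 327 of 521 higher ones (62.8%) and 385 of 646 lower ones (59.6%) kept their sign. The difference between unseparated and zone-sorted cells was itself tested, and no gene was called (0%; 380 genes, or 3.50%, at an unadjusted p under 0.05). Snord61 had -2.94 there, with an unadjusted p of 0.00131 and an adjusted p of 0.998. Gnptg, an enzyme subunit that tags lysosomal proteins and was picked after its values were seen, had the smallest adjusted p, 0.233.

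**Figure D4:**
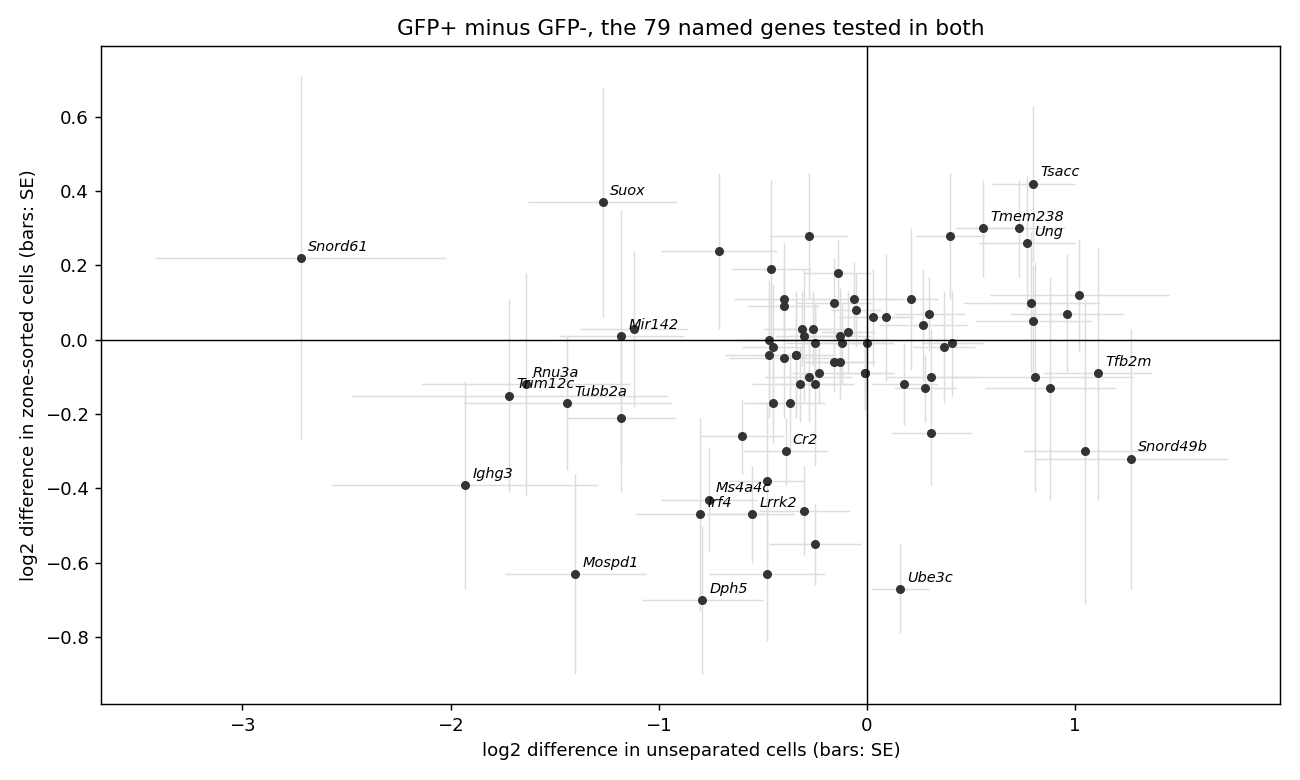
Log2 difference, GFP+ minus GFP-, of the 79 named genes in unseparated cells (horizontal) and in zone-sorted cells (vertical), with SE as bars; the axes have different scales, and 10 of the genes were named for their value over both. Snord61 lay at -2.72 and 0.22, whereas Irf4, Lrrk2, Dph5 and Mospd1 lay below 0 on both axes.

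Over unseparated, DZ and LZ cells together, 9 GFP+ against 9 GFP- arrays, again no gene was called in limma (0% of 10860). The smallest adjusted p was 0.75, 713 genes (6.57%) had an unadjusted p under 0.05, and for 99.2% of genes the 95% interval lay within a doubling or halving. After Lrrk2 the genes with the smallest p included Dph5, an enzyme of diphthamide synthesis, at -0.73 ± 0.17, with -0.79, -0.57 and -0.82 in unseparated, DZ and LZ cells; the first was -0.44 without GFP+ replicate 3. Tmem238 read 6.43, 6.41 and 6.35 in unseparated GFP+ and 5.83, 5.85 and 5.82 in GFP- cells, and differed by 0.39 ± 0.09 over the 3 settings. Ms4a4c was at -0.54 ± 0.13, 2210016L21Rik at 0.44 ± 0.11 and Snord85 at -0.58 ± 0.14. Ube3c and Arih2, both ubiquitin ligases, owed their place to the zones, where they differed by -0.67 and -0.55, against 0.16 and -0.25 in unseparated cells (0.24 and -0.12 without GFP+ replicate 3). Irf4 was at -0.58 ± 0.21, Ung at 0.43 ± 0.15 and Cr2 at -0.33 ± 0.10, each with an adjusted p of 0.75 in limma.

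With the replicate number as a block, 1 gene was called over the 3 settings, Snora52, a small nucleolar RNA of the type that guides pseudouridylation. It read 9.12, 7.89 and 9.16 in unseparated GFP+ cells and 8.71, 7.06 and 8.26 in GFP- cells. In DZ cells it read 8.99, 8.91 and 9.16 against 8.06, 7.95 and 8.65, and in LZ cells 8.91, 8.79 and 9.44 against 8.41, 7.87 and 8.80. It was higher in GFP+ cells in all 9 pairs. The difference was 0.73 ± 0.09 with an adjusted p of 0.0232 in limma with the block, and 0.73 ± 0.22 with an adjusted p of 0.75 without it.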

How the data were processed

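The deposited array table holds log2 signals made with RMA; R 2.15.2 is the version named per the submitters' processing notes. RMA normalizes probe signals between arrays and so hides changes in total RNA; the summarised signals still differed between arrays, with upper quartiles of 6.82 to 7.19. According to the label protocol, amplification (SPIA) started from 2 ng of RNA, and 5 ug of product was labelled with biotin. No source used here says if the 2 experiments were normalized together, so levels were not set across them. The number of arrays, 3 per group, limits the precision.

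Of 34760 probe sets, 21640 had 1 symbol in the platform annotation, 1321 several and 11799 none; those with several or none were fitted separately. Of the first, 21553 matched a RefSeq gene ID. Each of 19937 genes was represented by its brightest probe set. A gene was tested if above the array's median on at least 3 arrays. limma 3.58.1 (lmFit, eBayes) in R 4.3.3 was fitted to the 9 unseparated GC arrays (GFP-, GFP+ and IgE), with Benjamini-Hochberg adjustment over all genes tested; zone-sorted cells (12 arrays) and the IgG1 GC arrays of both experiments (18 arrays) were fitted likewise. The fits were tested on simulated data. Figures used matplotlib 3.10.9 under python 3.11.15.

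Same-numbered GFP+ and GFP- arrays deviated together from their group means (correlations 0.157, 0.13 and 0.117). The other combinations were negative, but deviations from a group mean cancel out, so this adds no support for the pairs. In the zones the same-numbered correlations were 0.025 to 0.076. Between GFP+ and IgE GC arrays they were 0.032, 0.219 and 0.087, and GFP+ replicate 3 with IgE replicate 1 had 0.098. Replicates were independent sorts per the labels. The numbers were taken to pair the arrays, from the data and not from a label, which remains an assumption. The fit with the block was an alternative.

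Genes named were those called, the 10 highest and 10 lowest differences among genes whose groups did not overlap, 28 core B cell genes, list members whose groups did not overlap, and the 10 smallest p over unseparated, DZ and LZ cells. The 36 lists (566 genes) came from textbook knowledge. Members and lists were chosen with earlier results of these data known. Ighg2b, Igkc, Ighg1 and Ighe were not analysed here, and some core genes are not reported here.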

Additional observations from a re-analysis of the deposited data

How the results depend on the processing

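With only the 6 arrays compared in the fit, 1 gene was called in unseparated cells (Snord61), which passed the filter there through its GFP- arrays alone and was not tested, with 0 calls, when genes were kept by their mean over the 6 arrays (chosen after seeing the data); with all 18 arrays of the first experiment, and under each other alternative, 0 were called. The replicate block gave 0 calls there (694 genes at an unadjusted p under 0.05 with 9 arrays, 564 with 6, against 514), and 1 call over unseparated, DZ and LZ cells together (Snora52); it changed no other call. Leaving out 1 array at a time gave 0 to 0 calls in the unseparated, zone-sorted, combined and interaction comparisons, and 380 (without GFP- replicate 1) to 886 (without GFP+ replicate 1; 783 without GFP+ replicate 2) genes at an unadjusted p under 0.05 in unseparated cells; fits with all 18 arrays gave 249 and with no filter 1068. Of 79 named genes tested, 71 kept their sign wherever the 18 alternatives tested them. Of 39 list medians 22 kept theirs, and the naive-marking set stayed at -0.43 to -0.27, the LZ genes at -0.40 to -0.14, the IL-4 and IL-21 list at 0.01 to 0.17 and the GC programme at -0.20 to -0.06. The naive-marking, small RNA and microRNA groups were chosen after seeing the data.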

Other observations

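Probe sets that the annotation gives several symbols or none were fitted the same way. Of 700 tested with several symbols none was called in limma (35 at an unadjusted p under 0.05, smallest adjusted p 0.746), and of 5701 with none, none was called (287, and 0.265).

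The naive-marking set was also taken at other thresholds. At 1 log2 unit, 176 of 223 tested genes were lower in GFP+ cells, with a median of -0.18. At 3 log2 units, 14 of 16 were lower, with a median of -0.36.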
